A study of Arabidopsis thaliana with 10 samples.

Results

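SAUR genes (SMALL AUXIN UPREGULATED RNA) are a large plant family whose short transcripts are among the earliest to accumulate after auxin treatment, and 3 of its probe sets could be followed in vegetative apices of Arabidopsis thaliana with altered CIN-TCP activity. Members were the probe sets with a single listed gene that the gene annotation names as a SAUR, with no filter on level. No listed probe set had a symbol beginning with SAUR, so the members were found through the family names that a RefSeq gene table (TAIR10.1 assembly) gives for their loci. They were SAUR10 (AT2G18010, chromosome 2), SAUR57 (AT3G53250, chromosome 3) and SAUR58 (AT1G43040, chromosome 1), 3 of 22746 probe sets other than AFFX controls. The gene table holds 80 SAUR genes. The other 77 had no listed probe set and are not analysed here, so nothing below describes the family as a whole. The platform annotation used here listed no gene for 8730 of the 22746 probe sets. A gene without a listed probe set may therefore still be measured by the array. The 3 genes lie apart from other family members, with 151, 217 and 690 protein-coding genes between SAUR10, SAUR57 and SAUR58 and the nearest other SAUR gene (SAUR8, SAUR18 and SAUR68) in that order. They are therefore not part of the tandem clusters in which many SAUR genes sit.

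Several SAUR proteins are known to promote cell expansion by inhibiting type 2C protein phosphatases, which leaves plasma membrane proton pumps active and acidifies the cell wall. Other hormones and light also control SAUR genes, and members differ in the organs where they act. SAUR10 is known as a growth-related gene that the MADS-domain factor FRUITFULL represses in stems. CIN-TCP genes, a class of transcription factor genes, restrain growth along the margins of leaves, and the protein TCP3 of this class is known to raise transcripts of auxin-response repressors, which connects these factors to the auxin pathway.

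The series compared 5 groups of 2 arrays. Col was the Columbia accession without a transgene, sampled at 14 DAS, the age code of the labels. The miR-3TCP plants carried 35S:miR-3TCP, a designed microRNA whose targets are TCP5, TCP13 and TCP17, and were in Col and of age 14 DAS. The miR319b plants carried 35S:319b, an endogenous microRNA with TCP2, TCP3, TCP4, TCP10 and TCP24 as its targets, and were in Col and of age 17 DAS. The octa plants, in Col and of age 18 DAS, were taken to be the combination of both microRNAs that the design describes. The 35S promoter is active in most cells. BLS>>TCP4 plants expressed TCP4 under BLS, a leaf-specific promoter. They were in the Ler accession and of age 14 DAS, with no Ler control among the groups. Age or accession therefore cannot be told apart from the transgene in every comparison except that of miR-3TCP with Col. Whole apices were sampled, so fewer cells of a type and less RNA per cell cannot be told apart either.

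Every array had a median signal of exactly 50 on a linear scale. The 25th percentile ran from 8.59 to 9.46 over the 8 Col accession arrays, and was 11.3 and 11.5 on the BLS>>TCP4 arrays. Replicates differed more in BLS>>TCP4, with a standard deviation of 0.41 for the log2 ratio of the 2 arrays, than elsewhere (0.24 to 0.28). Of the tissue markers, YAB3 and PHV, genes of leaf primordium polarity, had signals of 308 to 465 and 203 to 442 over the 10 arrays. CLV3, a peptide gene of the stem cells at the meristem's tip and the only meristem marker with a listed probe set, had 0.654 to 7.26. RCA, the Rubisco activase gene of green leaf cells, had 2780 to 2996 on the Col accession arrays and 6010 and 6275 on the BLS>>TCP4 arrays. PYK10, a root marker, had 1828 to 2113 and 992 to 1508 on the same sets of arrays, and its part in the results was not tested.

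All 3 SAUR probe sets were dim. None reached the array median on any of the 10 arrays, and all 3 had a mean signal below 27.2, the 40th percentile of the means of all probe sets. Without detection calls, a transcript at a low level and no transcript cannot be told apart at such signals. The sentences below therefore give signals as the files hold them, and the differences on the log2(signal + 16) scale understate ratios between signals this low.

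SAUR10 was highest in BLS>>TCP4. Its signals were 13.0 and 7.98 in Col, 6.97 and 10.5 in miR-3TCP, and 3.87 and 7.94 in miR319b. They were 9.60 and 12.4 in octa, and 19.4 and 17.8 in BLS>>TCP4. Both BLS>>TCP4 arrays lay above the 8 others. The group means, from low to high, were 5.91 ± 2.88 (SD, n = 2) in miR319b, 8.74 ± 2.50 in miR-3TCP, 10.5 ± 3.53 in Col, 11.01 ± 1.99 in octa and 18.6 ± 1.15 in BLS>>TCP4. Neighbours in this order overlapped except octa and BLS>>TCP4. SAUR10 lay at percentiles 15.5 to 30.7 of all probe sets on the Col accession arrays and at 32.7 or higher on the BLS>>TCP4 arrays.

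SAUR57, for which no role is stated here, was uneven between replicates in every group but miR319b. Its signals were 6.73 and 0.730 in Col, 7.78 and 1.78 in miR-3TCP, and 0.794 and 1.28 in miR319b. They were 3.99 and 11.2 in octa, and 10.6 and 38.9 in BLS>>TCP4. A single array, BLS>>TCP4 replicate 2, stood clear of the rest, while the other BLS>>TCP4 array lay below the higher octa array. The group means were 1.04 ± 0.341 in miR319b, 3.73 ± 4.24 in Col, 4.78 ± 4.25 in miR-3TCP, 7.60 ± 5.10 in octa and 24.7 ± 20.0 in BLS>>TCP4 (SD, n = 2). All neighbours in this order overlapped.

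SAUR58, likewise given no role here, showed no group apart from the others. Its signals were 0.859 and 12.6 in Col, 2.61 and 5.37 in miR-3TCP, and 0.373 and 2.22 in miR319b. They were 0.852 and 10.1 in octa, and 3.81 and 0.732 in BLS>>TCP4. The spread within Col and within octa covered most of the values of the other groups. The group means were 1.30 ± 1.31 in miR319b, 2.27 ± 2.18 in BLS>>TCP4, 3.99 ± 1.96 in miR-3TCP, 5.45 ± 6.51 in octa and 6.71 ± 8.27 in Col (SD, n = 2) and all neighbours in this order overlapped.

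**Figure D1:**
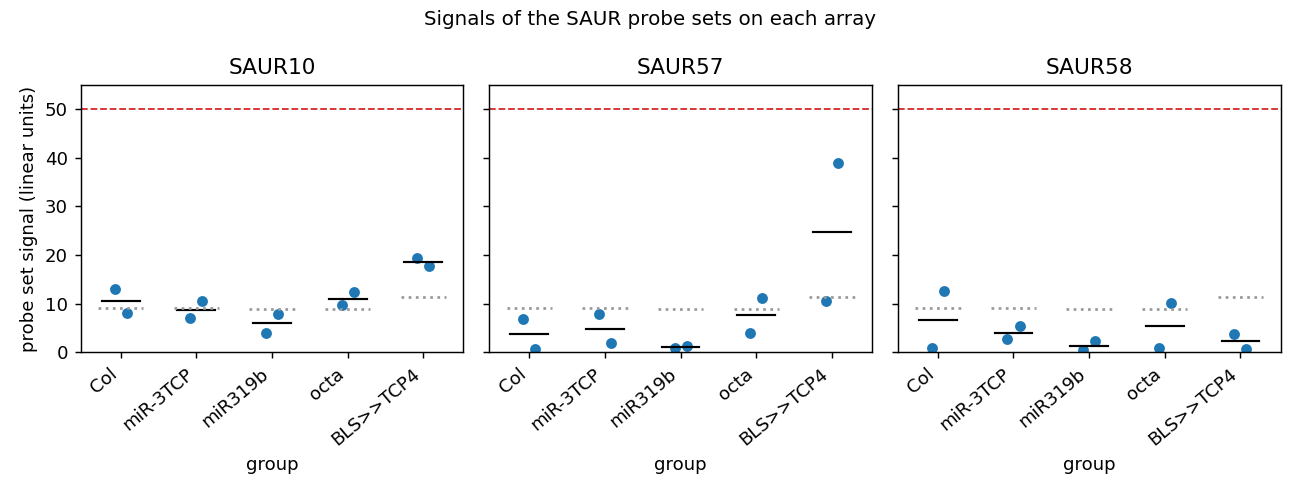
Signals of SAUR10, SAUR57 and SAUR58 on each of the 10 arrays, in linear units on the vertical axis, by group on the horizontal axis. Points are arrays, black bars are group means of 2 arrays, grey dotted bars are the mean 25th percentile of the group's arrays and the red dashed line is the array median of 50. All points lie under the median, and the highest is 38.9, for SAUR57 on a BLS>>TCP4 array.

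The unevenness between replicates was set beside that of probe sets of like brightness, the 4549 whose mean signal lay between the 10th and 30th percentiles. Replicates of these differed by a median of 0.15 to 0.24 on the log2 scale, depending on the group. SAUR57 differed by 1.04 between the BLS>>TCP4 replicates, at percentile 99.45 of those probe sets. It differed by 0.42 to 0.44 in Col, miR-3TCP and octa, at percentiles up to 93.4, and by 0.04 in miR319b, at percentile 14.4. SAUR58 differed by 0.76 between the Col replicates and by 0.63 between the octa replicates, at percentiles 99.0 and 98.4 of them. SAUR10 differed by 0.07 to 0.27 in the 5 groups, which placed it between percentiles 17.5 and 71.0. Of the 3 genes, only SAUR10 stayed below the 90th percentile of these probe sets in all 5 groups.

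The comparison of miR-3TCP with Col, at equal age, asked what goes with targeting of TCP5, TCP13 and TCP17, whose own levels are not given here. None of the 3 SAUR probe sets was called at an adjusted p under 0.05, where 0.0044% of all probe sets were called, and 0 of 3 had an unadjusted p under 0.05 by limma, against 3.3% of all probe sets. SAUR10 had a log2 difference of -0.10 ± 0.14 (SE), with a 95% interval from -0.43 to 0.24. SAUR57 had 0.08 ± 0.32 and SAUR58 had -0.14 ± 0.26. All 3 genes overlapped between the groups, and the adjusted p was 0.9999 for each. The intervals of SAUR57 (-0.66 to 0.81) and SAUR58 (-0.74 to 0.46) leave room for differences of either sign.

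The comparison of miR319b with Col asked the same of the miR319 targets. All 3 SAUR probe sets had lower means in miR319b and none was called (1.05% of all probe sets were called). Again 0 of 3 had an unadjusted p under 0.05 by limma, against 16.4% of all probe sets. The shared direction rested on single Col arrays, since SAUR57 had 0.026 without Col replicate 1 and SAUR58 had 0.035 without Col replicate 2. SAUR10 had a log2 difference of -0.27 ± 0.14 (95% interval -0.60 to 0.06, adjusted p = 0.399). Its groups did not overlap, by the narrow margin between 7.94 and 7.98, and 26.2% of all probe sets were lower in miR319b without overlap. SAUR57 (-0.20 ± 0.32, adjusted p = 0.837) and SAUR58 (-0.35 ± 0.26, adjusted p = 0.578) overlapped. Ages differed, 17 against 14 DAS.

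With all 8 CIN-TCP genes targeted, in octa against Col, the SAUR probe sets showed no common direction. None was called (0.325% of all probe sets were called), 0 of 3 had an unadjusted p under 0.05 by limma, against 11% of all probe sets, and the groups overlapped for all 3. SAUR10 had a log2 difference of 0.03 ± 0.14 (95% interval -0.30 to 0.36, adjusted p = 0.990). SAUR57 had 0.26 ± 0.32 (adjusted p = 0.880) and SAUR58 had -0.07 ± 0.26 (adjusted p = 0.989). Both of these genes had 1 octa array near 10 or 11 and the other at or below 4.

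BLS>>TCP4 against Col was the comparison with added TCP4. SAUR57 and SAUR10 had higher signals in BLS>>TCP4 without overlap, and neither passed the threshold. None of the 3 was called, against 16.2% of all probe sets, although 2 of 3 had an unadjusted p under 0.05 by limma, as did 31.4% of all probe sets. SAUR57 had a log2 difference of 0.97 ± 0.32 (95% interval 0.24 to 1.71, adjusted p = 0.0754). SAUR10 had 0.39 ± 0.14 (0.06 to 0.72, adjusted p = 0.102), and SAUR58 had -0.27 ± 0.26 (-0.87 to 0.33, adjusted p = 0.528). Signals higher in BLS>>TCP4 without overlap were frequent, at 37.7% of all probe sets and 37% of those below the 40th percentile. The lack of overlap alone therefore does not set SAUR10 and SAUR57 apart from other dim probe sets. These shares compare overlap and not the size of the differences.

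The BLS>>TCP4 arrays also carried a shift of their own. The median log2 difference from Col was 0.09 over all probe sets and 0.08 over those below the 40th percentile. With quantile normalization, which gives all arrays the same distribution, SAUR10 had 0.27 (adjusted p = 0.265) and SAUR57 had 0.90 (adjusted p = 0.137). The value of SAUR57 rested on 1 array. Without BLS>>TCP4 replicate 1 it was 1.49, and without BLS>>TCP4 replicate 2 it was 0.45. Each of these fits held a single BLS>>TCP4 array and so no spread within that group. SAUR10 lay between 0.26 and 0.53 with each of the 4 arrays left out.

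Octa against miR319b compared plants with and without miR-3TCP where miR319b was present, at 18 against 17 DAS. Age and transgene cannot be told apart in it. All 3 SAUR probe sets had higher means in octa and none was called, like 0% of all probe sets, with 0 of 3 at an unadjusted p under 0.05 by limma against 8.44% of all probe sets. SAUR10 had a log2 difference of 0.31 ± 0.14 (95% interval -0.02 to 0.64, adjusted p = 0.625) and SAUR57 had 0.45 ± 0.32 (-0.28 to 1.19, adjusted p = 0.740). Both did not overlap between the groups, as was the case in this direction for 17.8% of all probe sets. SAUR58 had 0.28 ± 0.26 (adjusted p = 0.818) and overlapped. The interaction is the octa against miR319b difference less that of miR-3TCP against Col. It was 0.40 ± 0.20 for SAUR10 (adjusted p = 0.846) and 0.38 ± 0.46 for SAUR57 (adjusted p = 0.937). For SAUR58 it was 0.42 ± 0.37 (adjusted p = 0.901). Age differed among its groups too. None of these interactions was called, against 0.0044% of all probe sets.

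Octa against miR-3TCP compared plants with and without miR319b where miR-3TCP was present, at 18 against 14 DAS. Here too age and transgene cannot be told apart. The differences were small beside their errors, at 0.13 ± 0.14 for SAUR10, 0.18 ± 0.32 for SAUR57 and 0.07 ± 0.26 for SAUR58. None was called (0.369% of all probe sets were called) and the groups overlapped for all 3. Again 0 of 3 had an unadjusted p under 0.05 by limma, against 9.7% of all probe sets.

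**Figure D2:**
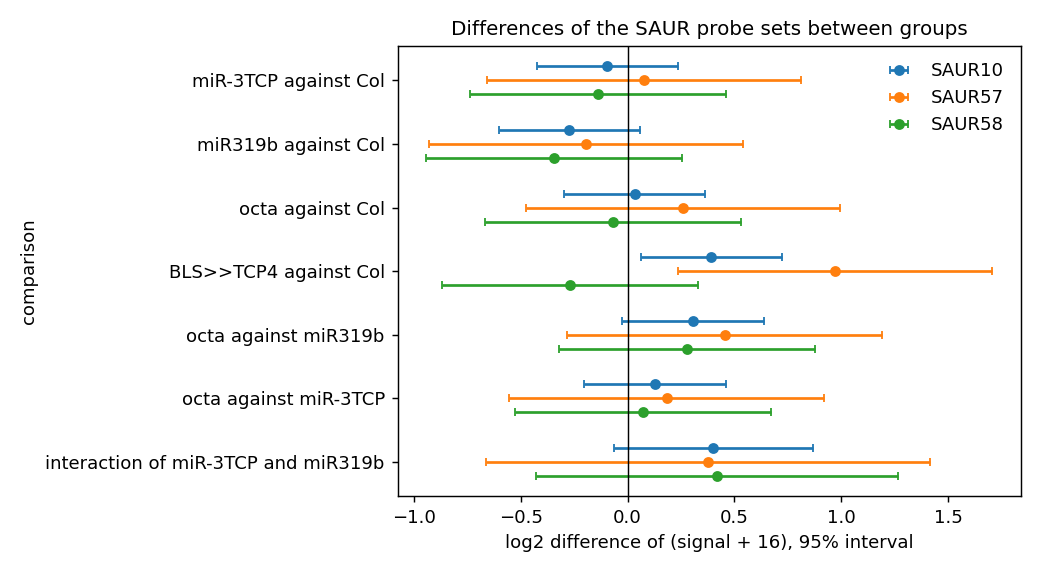
Log2 differences of SAUR10, SAUR57 and SAUR58 in 7 comparisons, on the log2(signal + 16) scale on the horizontal axis, with 95% intervals as bars. In 6 comparisons every interval includes 0. In BLS>>TCP4 against Col the intervals of SAUR57 (0.24 to 1.71) and SAUR10 (0.06 to 0.72) do not, before adjustment over all probe sets.

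Other genes of the auxin pathway were counted in the same fit. The lists covered 4 steps: YUC enzymes of auxin synthesis (4 probe sets, for 4 of 14 genes in the synthesis list), Aux/IAA repressors of auxin response (7, for 7 of 33), GH3 enzymes that conjugate auxin to amino acids (5, for 5 of 10) and expansins, which loosen the acidified wall (19, for 19 of 36). The ARF factors, the TIR1 and AFB receptors, the transport proteins and the plasma membrane proton pumps had 0 listed probe sets. This describes the annotation used, since 8730 probe sets had no listed gene, and not what the array can measure. In miR-3TCP against Col, 0 of these 35 probe sets were called by limma and 1 had an unadjusted p under 0.05, against 3.3% of all probe sets, and the list medians lay between -0.08 and 0.08. In miR319b against Col 1 of 35 was called and 11 had an unadjusted p under 0.05, against 1.05% and 16.4% of all probe sets. In octa against Col these counts were 0 and 8, against 0.325% and 11%, and in BLS>>TCP4 against Col they were 4 and 8, against 16.2% and 31.4%. In octa against miR319b they were 0 and 5, against 0% and 8.44%, and in octa against miR-3TCP 0 and 7, against 0.369% and 9.7%.

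Among the Aux/IAA genes, 1 of 7 rose in miR319b against Col and none fell, where 1.05% of all probe sets were called in either direction. This was IAA20, an Aux/IAA gene whose protein lacks the degron of the family. Its signals were 2.099 and 1.56 in Col, 8.11 and 11.8 in miR-3TCP, 15.8 and 18.5 in miR319b, 5.97 and 9.21 in octa, and 1.63 and 0.957 in BLS>>TCP4. The 6 arrays with a microRNA transgene all lay above the other 4. The log2 difference was 0.90 ± 0.11 between miR319b and Col (adjusted p = 0.0224) and 0.40 ± 0.11 between octa and Col (adjusted p = 0.179). Between miR-3TCP and Col it was 0.54 ± 0.11 (adjusted p = 0.9999). Octa, with both microRNAs, had lower means than miR319b (-0.49 ± 0.11, adjusted p = 0.428) and miR-3TCP (-0.14 ± 0.11, adjusted p = 0.837), with neither called. IAA20 was as dim as the SAUR probe sets, and the call was lost when each of the 4 arrays was left out in turn (adjusted p = 0.0740 to 0.191). The list median against Col was 0.16 for miR319b, 0.06 for octa and -0.04 for BLS>>TCP4, where all probe sets had medians of -0.01, -0.02 and 0.09.

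Of the 5 GH3 genes, 2 fell in BLS>>TCP4 against Col and none rose, where 16.2% of all probe sets were called in either direction. GH3.17, whose enzyme conjugates auxin to glutamate, had signals of 550 and 438 in Col and 218 and 243 in BLS>>TCP4, with no overlap (-1.04 ± 0.19, adjusted p = 0.00849). Its signals on the other 6 arrays, 382 to 607, covered the Col range. GH3.3 had 244 and 212 in Col and 69.7 and 110 in BLS>>TCP4 (-1.23 ± 0.21, adjusted p = 0.00665). It had 244 and 242 in miR-3TCP. Both other groups lay above the Col arrays, at 335 and 392 in miR319b and 431 and 316 in octa. Neither of these was called against Col (0.64 and 0.67, adjusted p = 0.179 and 0.247). Without Col replicate 1 the adjusted p was 0.0666 for GH3.17 and 0.0534 for GH3.3. The list median against Col was 0.12 for miR319b, 0.01 for octa and -0.47 for BLS>>TCP4.

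No YUC gene was called in any comparison. In miR319b and in octa, 3 of the 4 had lower means than Col and YUC4 a higher one, with list medians of -0.35 and -0.33. YUC4, active in young organs, had a mean of 45.0 ± 0.139 in Col, 80.1 ± 5.49 in miR319b and 86.9 ± 10.0 in octa (log2 differences 0.65 and 0.75, adjusted p = 0.151 and 0.162). YUC2 had 47.3 ± 3.30 in Col, 24.5 ± 0.851 in miR319b and 25.6 ± 6.67 in octa (-0.64 and -0.61, adjusted p = 0.103 and 0.165). YUC6 had 29.0 ± 0.846 in Col, 14.5 ± 12.9 in miR319b and 10.7 ± 5.65 in octa (-0.63 and -0.77, adjusted p = 0.296 and 0.320). These YUC genes were picked with their values known. Of the 19 expansins, 1 rose and 1 fell in BLS>>TCP4 against Col, a share below the 16.2% of all probe sets called there. EXPA7, known from root hairs, had signals of 2.86 and 9.49 in Col and 21.8 and 17.3 in BLS>>TCP4 (0.69 ± 0.16, adjusted p = 0.0221). EXPA20 had 58.1 and 55.8 in Col and 25.2 and 26.2 in BLS>>TCP4 (-0.81 ± 0.22, adjusted p = 0.0433). The call of EXPA20 was lost with each of the 4 arrays left out in turn (adjusted p = 0.0872 to 0.163). That of EXPA7 was lost without Col replicate 1 (0.130) and without BLS>>TCP4 replicate 1 (0.0741). No expansin was called in the other comparisons. EXPA15 had the largest rise of the list in miR319b and in octa against Col, without overlap. Its means were 319 ± 83.3 in Col, 793 ± 225 in miR319b and 675 ± 201 in octa (1.27 and 1.04, adjusted p = 0.110 and 0.256). EXPA8 had the largest fall in both (-1.06 and -0.88), and the list medians were -0.001 and -0.008. EXPA15 and EXPA8 were also picked with their values known.

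**Figure D3:**
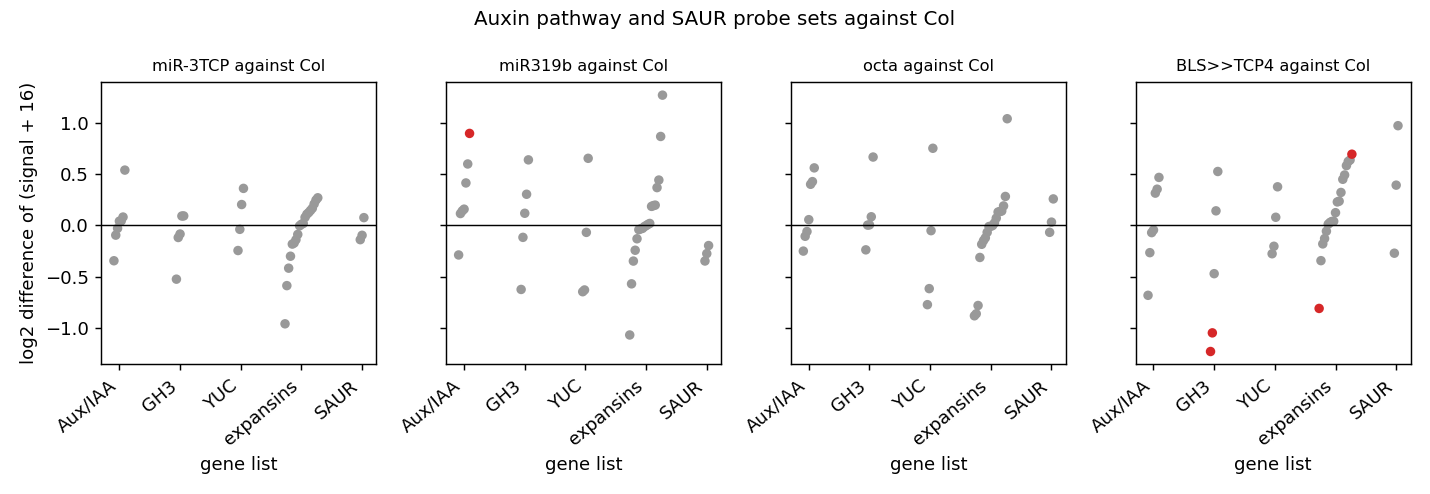
Log2 differences from Col on the log2(signal + 16) scale (vertical axis) for each probe set of the Aux/IAA, GH3, YUC and expansin lists and of the 3 SAUR genes (horizontal axis), in 4 panels, 1 for each comparison with Col. Red points passed an adjusted p under 0.05 and grey points did not. The red points are IAA20 in miR319b and GH3.3, GH3.17, EXPA7 and EXPA20 in BLS>>TCP4, and no SAUR point is red.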

How the data were processed

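Total RNA of vegetative apices was hybridised to Affymetrix arrays, 1 per sample. The values the authors deposited are linear intensities of 22810 probe sets. MAS5 is the tool named per the submitters' processing notes, and its version and settings are not given. Of 22746 probe sets left without 64 AFFX controls, 13513 had 1 gene in the platform annotation, 503 had several and 8730 were not listed. A RefSeq gene table matched 13436 by Entrez identifier and 48 more, the SAUR genes among them, by locus.

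Values were transformed as log2(signal + 16), with no filter on level. A single fit held all 10 arrays, with a coefficient for each group (limma 3.58.1, R 4.3.3, eBayes with an intensity trend, 5 residual degrees of freedom). Calls needed a Benjamini-Hochberg adjusted p under 0.05 over all probe sets. All p-values are from this model, ± after a log2 difference is its standard error, and intervals are at 95% without adjustment. The model gives all groups 1 spread, although BLS>>TCP4 varied more. The number of arrays limits the precision. No label says that arrays of a group came from separate plants or cultures, so the p-values reflect the variation among these arrays, part or all of which may be technical.

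Named were the called SAUR probe sets, or those of smallest p where few were called, SAUR10 for its studied role, and up to 2 called probe sets per auxin list and comparison. The members and lists were chosen with earlier results of these data known. The model was tested on simulated data, with the outcome not reported here, and no result above rests on it. Alternatives covered the pseudocount, filter, normalization, spread, arrays fitted, replicate number as a block and each array left out. A fit with an array left out held a single array of that group, so its p-values take no spread from that group. Protein identities and promoter motifs were planned and not computed, as no sequences were used here.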

Additional observations from a re-analysis of the deposited data

How the results depend on the processing

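No SAUR probe set was called in any of the 7 comparisons under the alternatives for pseudocount, normalization, spread, arrays fitted and replicate block. In BLS>>TCP4 against Col the count of SAUR calls was 1 (SAUR10, 0.22, adjusted p = 0.0197) with signals below 16 set to 16. That setting was added after the data had been seen, and both Col arrays stand at the floor in it. The filter at the 40th percentile left 0 of the 3 to test. SAUR differences kept direction and call in 127 of 128 values outside fits with an array left out. Those for spread, arrays fitted and block cannot change direction (block: SAUR10 0.39 and SAUR57 0.97, adjusted p = 0.120 and 0.0914, in BLS>>TCP4 against Col). Replicate numbers were not treated as pairs, since same-numbered arrays' deviations correlated at -0.30 to 0.32. With an array left out, 14 of 80 values changed sign. In miR-3TCP against Col the ranges were -0.23 to 0.041 for SAUR10, -0.14 to 0.30 for SAUR57 and -0.52 to 0.24 for SAUR58. In miR319b against Col they were -0.42 to 0.026 for SAUR57 and -0.73 to 0.035 for SAUR58. In octa against Col they were -0.10 to 0.17 for SAUR10 and -0.45 to 0.31 for SAUR58, for SAUR58 in BLS>>TCP4 against Col -0.65 to 0.11, and for SAUR57 in octa against miR-3TCP -0.040 to 0.40. Values that kept their sign also moved by over 1.5 times, such as SAUR10 in miR319b against Col (-0.41 to -0.14), SAUR57 in octa against Col (0.036 to 0.48) and against miR319b (0.23 to 0.68), and the interaction for SAUR58 (0.036 to 0.80).

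Over all probe sets, for miR319b against Col 238 calls became 549 with the filter, 416 with array weights, 157 with the replicate block and 2 with only those arrays, and for octa against Col 74 became 249, 383, 30 and 2. For BLS>>TCP4 against Col 3687 became 1911 with array weights and 440 with only those arrays. For octa against miR-3TCP 84 became 335 with the filter, 626 with array weights, 177 with a pseudocount of 1 and 0 with only those arrays. With an array left out these counts were 2 to 4, 2 to 3, 1361 to 3991 and 0 to 5 in that order. With only the arrays compared, IAA20 (adjusted p = 0.111), GH3.3 (0.0712), GH3.17 (0.0575), EXPA20 (0.0830) and EXPA7 (0.120) lost their calls. With array weights EXPA20 (0.137) and EXPA7 (0.0833) did, with the block EXPA20 (0.0558) did, and with a pseudocount of 1 EXPA7 (0.0533) did. With signals below 16 set to 16 IAA20 (0.11, adjusted p = 0.565), EXPA7 (0.139) and EXPA20 (0.0622) did.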
